A study of Mus musculus with 6 samples.

Results

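The mitochondrial ribosomal protein genes are the nuclear genes whose symbols begin with Mrpl or Mrps and a number, for the large and the small subunit. They were taken from the deposited count table by symbol, with at least 10 reads in at least 3 libraries. Among its 24091 genes, 78 carry such a symbol and 77 met the rule, 48 of the large and 29 of the small subunit. They lie on 17 chromosomes, with 11 on chromosome 11. The RNA came from liver group 1 innate lymphoid cells (ILC1), resident lymphocytes of the organ that make interferon gamma. The AML group was made of C57BL/6 mice given 1000000 C1498 cells, an acute myeloid leukaemia line, into a vein. The healthy group was C57BL/6 mice given none. Both groups had 3 libraries (AML 1 to 3 and healthy 1 to 3), from livers taken at day 14. The labels name no transgene, further agent, sorting gate, sex or pooling of animals, and C1498 is a single transplanted line. The labels do not tell whether libraries are separate animals, so p-values measure the spread among libraries alone, part of which may be technical.

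Mitochondria keep their own ribosome, which translates the few messages of mitochondrial DNA into core subunits of the respiratory chain and the ATP synthase. Its ribosomal RNAs are made inside the organelle, while every one of its proteins is encoded in the nucleus, made in the cytosol and imported. The large subunit joins amino acids and passes the chain to the inner membrane, and the small subunit reads the message. Some of its proteins have counterparts in the bacterial ribosome, and others were added during the evolution of mitochondria. Symbols do not always give the place of a protein, since the products of Mrps18a and Mrps30 sit in the large subunit of the mammalian particle. The groups below follow the symbols.

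Library depth was 45135093 to 51284691 reads. Of the 11 genes listed to mark ILC1, 10 were in the table. They summed to 5652 to 6356 CPM (counts scaled to library size) in AML and 5934 to 6171 CPM in healthy libraries. Klra4 had no read among the 8 genes of conventional NK cells. These 8 summed to 125 to 157 CPM in AML and 131 to 158 CPM in healthy libraries. Their most abundant gene, Itgam, had 72.7 to 92.5 CPM in AML and 91.0 to 109 CPM in healthy libraries. The other 7 summed to 50.7 to 69.6 CPM in AML and 37.4 to 49.0 CPM in healthy libraries, without overlap. Of the 7 NK cell genes tested, 5 had a positive and 2 a negative log2 fold change. Summed markers of some other cells had different ranges in the groups. The 10 macrophage genes, led by Csf1r, summed to 119 to 190.2 CPM in AML and 24.4 to 84.3 CPM in healthy libraries, and 8 of the 8 tested had a positive log2 fold change. Of the 10 dendritic cell genes the most abundant, Itgax, overlapped between the groups, and the other 9 summed to 366 to 658 CPM in AML and 106 to 202 CPM in healthy libraries. The 10 monocyte and neutrophil genes summed to 557 to 783 CPM in AML and 157 to 608 CPM in healthy libraries, with the high healthy value in healthy 1 and Lyz2 as the leading gene. Of the 8 T cell genes in the table Cd3g held most, at 951 to 1293 CPM in AML and 1317 to 1646 CPM in healthy libraries. The other 7 summed to 28.8 to 87.5 CPM in AML and 46.8 to 59.3 CPM in healthy libraries, and 4 of the 8 had a positive log2 fold change. Of the 9 hepatocyte genes, with Cps1 at 0, Trf held nearly all, at 185 to 204 CPM in AML and 228 to 275 CPM in healthy libraries, and the other 8 summed to 1.48 to 2.59 CPM in AML and 1.07 to 5.92 CPM in healthy libraries. B cell genes, with Pax5 at 0, summed to 5.45 to 6.39 CPM in AML and 5.36 to 7.54 CPM in healthy libraries. Liver endothelium genes other than Pecam1, with Lyve1 at 0, stayed under 1 CPM in sum in every library. The part of these cells in the values that follow was not tested. In bulk RNA, fewer cells of a type and less RNA per cell cannot be told apart.

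Levels between genes are given per length, in RPKM (reads per kilobase of gene, scaled to depth as CPM are). The median level over the members was 25.7 RPKM, with the middle 50% of members between 12.6 and 45.0 RPKM. The subunits had close medians, 25.3 RPKM for the 48 large and 25.7 RPKM for the 29 small subunit genes. The 44 genes whose number follows a bacterial ribosomal protein had a median of 35.9 RPKM. The 33 with higher numbers, called mitochondria-specific below, had one of 19.4 RPKM. Without scaling by length the medians were closer, 37.9 and 30.8 CPM. The split is by number alone, so Mrps36 and Mrpl58 are among the 33.

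At the top of the large subunit stood Mrpl52, a protein of the central protuberance, with a mean of 96.6 RPKM over the 6 libraries. It had 85.9, 98.2 and 98.2 RPKM in AML libraries and 102, 98.0 and 97.0 RPKM in healthy libraries. The groups overlapped, with AML 1 the lowest and healthy 1 the highest library. Mrpl18 followed with 78.4 RPKM, Mrpl30 with 77.5 RPKM and Mrpl58 with 74.7 RPKM. These 3 neighbours in the order overlapped over the libraries. Mrpl58 encodes a release factor homologue that frees stalled peptides and became a part of the large subunit. In the small subunit Mrps26 led with 89.7 RPKM, measured at 81.8, 80.9 and 97.5 RPKM in AML libraries and 97.8, 92.1 and 88.0 RPKM in healthy libraries. Mrps21, Mrps24 and Mrps12 followed at 68.5, 67.4 and 56.3 RPKM, and Mrps21 and Mrps24 overlapped over the libraries.

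The lowest members per length were Mrpl23 and Mrpl17 in the large subunit, at 0.467 and 5.22 RPKM. In the small subunit they were Mrps36 and Mrps25, at 1.87 and 3.77 RPKM. The rank of Mrpl17 and Mrps25 follows from their long deposited lengths, 7.015 and 6.061 kb. Mrpl17 had 30.8 to 41.6 CPM, around the median of 36.9 CPM over the members. Mrps25 averaged 23.9 CPM in AML and 21.8 CPM in healthy libraries, above Mrps34 with 6.11 and 7.38 CPM. Mrpl23, a protein at the rim of the polypeptide exit tunnel, only just met the rule. Its reads were 10, 10 and 15 in AML libraries and 20, 14 and 10 in healthy libraries, so its fold change of -0.31 on the log2 scale had a 95% interval of -1.75 to 1.13. In the GENCODE annotation of GRCm38, 11.7% of the 51-base windows of Mrpl23 also occurred in other genes, among them the pseudogene Mrpl23-ps1. For Mrps36, 17.0% of such windows were shared, among others with Mrps36 pseudogenes. These shares are over all GENCODE transcripts of each gene, 5004 windows for Mrpl23 and 1367 for Mrps36. The deposited lengths are shorter, 0.577 and 0.712 kb. The shares within the counted lengths were not computed and can be larger. The MRPS36 protein, named for the small subunit, is now counted as a part of the 2-oxoglutarate dehydrogenase complex. The gene outside the rule was Mrpl53, of the stalk region, which had 0 reads in every library, where a limit of 3 reads equals 0.0585 to 0.0665 CPM. Its row (chr6:83108091-83109932, + strand) lies inside that of Ccdc142, and 88.0% of its exonic bases belong to other genes. The labels and headers do not say how the counting treated such shared reads, so the levels of Mrpl53, Mrpl23 and Mrps36 are uncertain. The same holds for Mrps34 and Mrps25, with 77.8% and 69.8% of their exonic bases in other genes. The 9 members with over 20% of exonic bases in other genes had a median of 11.5 RPKM, and the 45 with none had 23.8 RPKM.

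**Figure D1:**
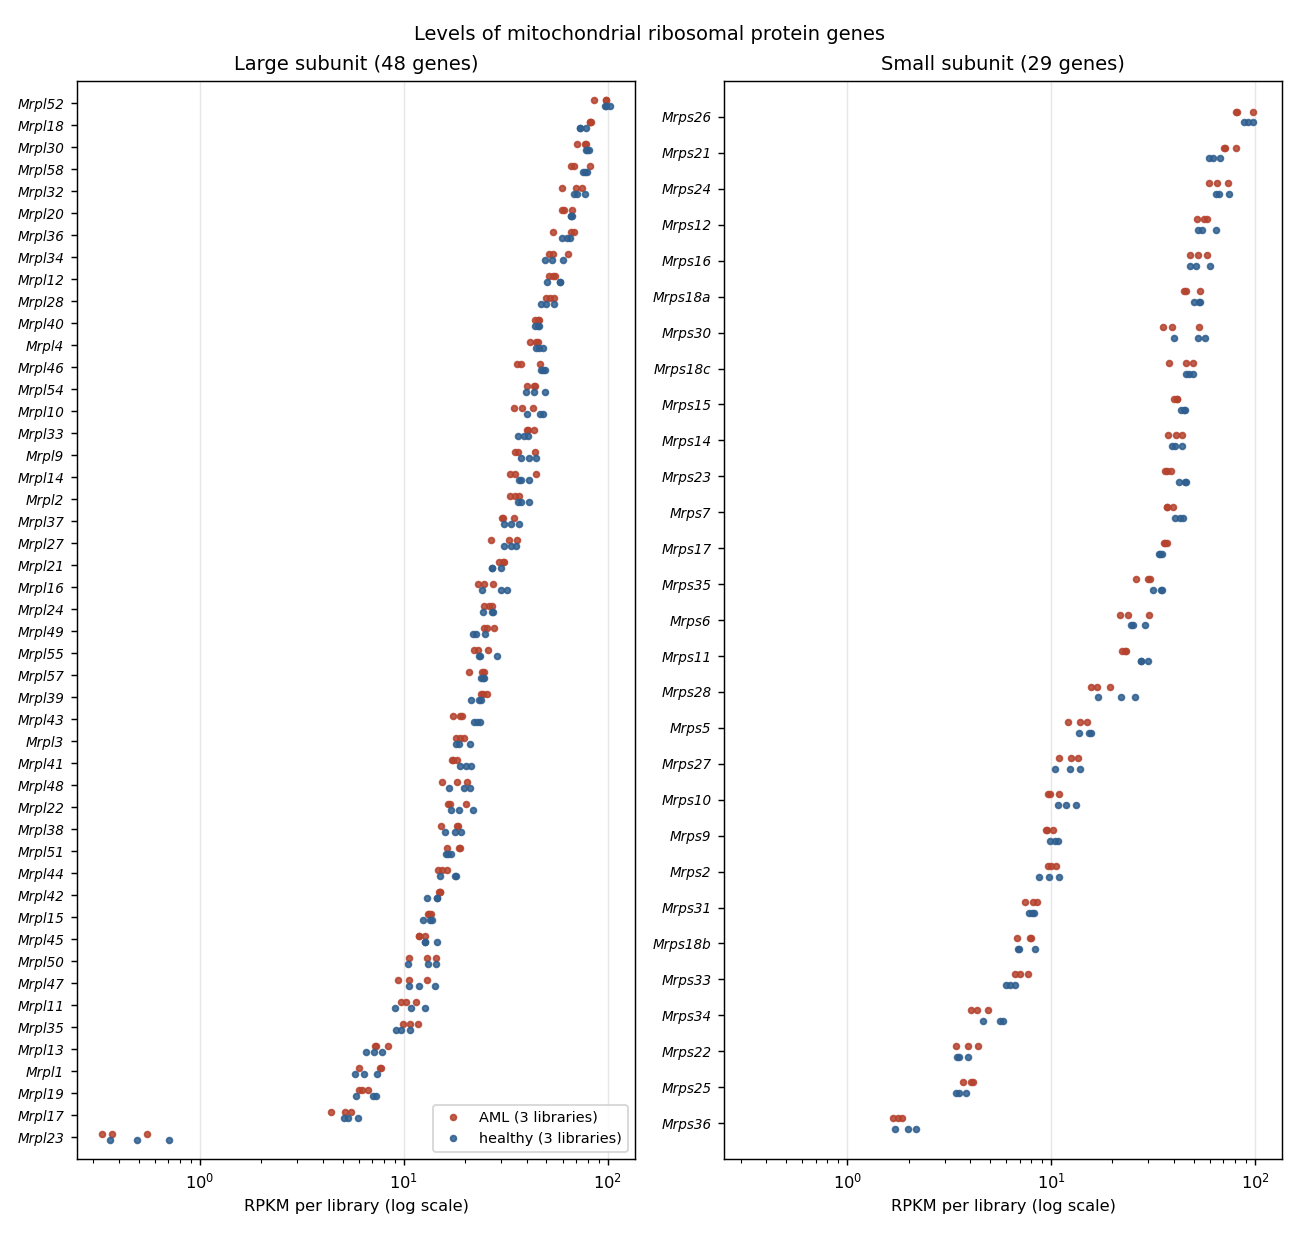
Levels per library of the 48 large (left) and 29 small (right) subunit genes, in RPKM on a log axis, ordered by mean level, with AML libraries in red above healthy libraries in blue. Nearly all members lie between a few and about 100 RPKM with the groups intermingled, and Mrpl23 stands apart at the bottom.

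AML and healthy libraries were close at nearly all of these genes. In the quasi-likelihood test of edgeR with Benjamini-Hochberg adjustment over 12469 genes, 0 of 77 members passed an adjusted p of 0.05, as did 0% of all genes tested. DESeq2, limma-voom and the likelihood ratio test of edgeR also called 0 members, while over all genes they called 143 (1.15%), 0 and 100 (0.802%). At an unadjusted p below 0.05, 5 members (6.49%) were lower in AML, against 3.75% of all genes, and 0 were higher, against 5.08% of all genes. The 5 were Mrps23, Mrps11, Mrpl43, Mrpl46 and Mrps35. The 3 AML libraries were all below the 3 healthy libraries for 8 members (10.4%), where the share of all genes was 7.34%, and all above them for 5 members (6.49%), where it was 8.2%. These counts over all members are near the background. By subunit, 2 of 48 large (4.17%) and 3 of 29 small members (10.3%) were lower at an unadjusted p below 0.05. All AML libraries were below for 3 large (6.25%) and 5 small members (17.2%), and above for 3 (6.25%) and 2 (6.9%). The difference between the subunits rests on few genes and was not tested.

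Fold changes were small and lay close together. The median log2 fold change was -0.07 over the members, -0.07 over the large and -0.09 over the small subunit, and 0.01 over all genes tested. Below 0 were 53 of 77 members (68.8%), 33 of 48 large and 20 of 29 small, against 48% of all genes; with library totals alone as the scale, the count was 40 of 77 and the median -0.01, while the median of all genes was 0.07. Relative to the median of all genes the members stood at -0.08 on both scales, and at -0.02 without both AML 1 and healthy 1. Among 4341 genes with CPM in the range of the members, 48.3% were below 0 and the median was 0.01. The largest values were -0.32 (Mrps28) and 0.24 (Mrps21). For 41 members the size was under 0.1, and for 4, Mrps28, Mrps11, Mrpl43 and Mrpl23, it was over 0.3. The 95% interval lay within -0.5 and 0.5 for 66 of 77 members and within a 1.5-fold change either way for 70. For most members a change beyond 1.5-fold is thus outside the interval that these libraries give.

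**Figure D2:**
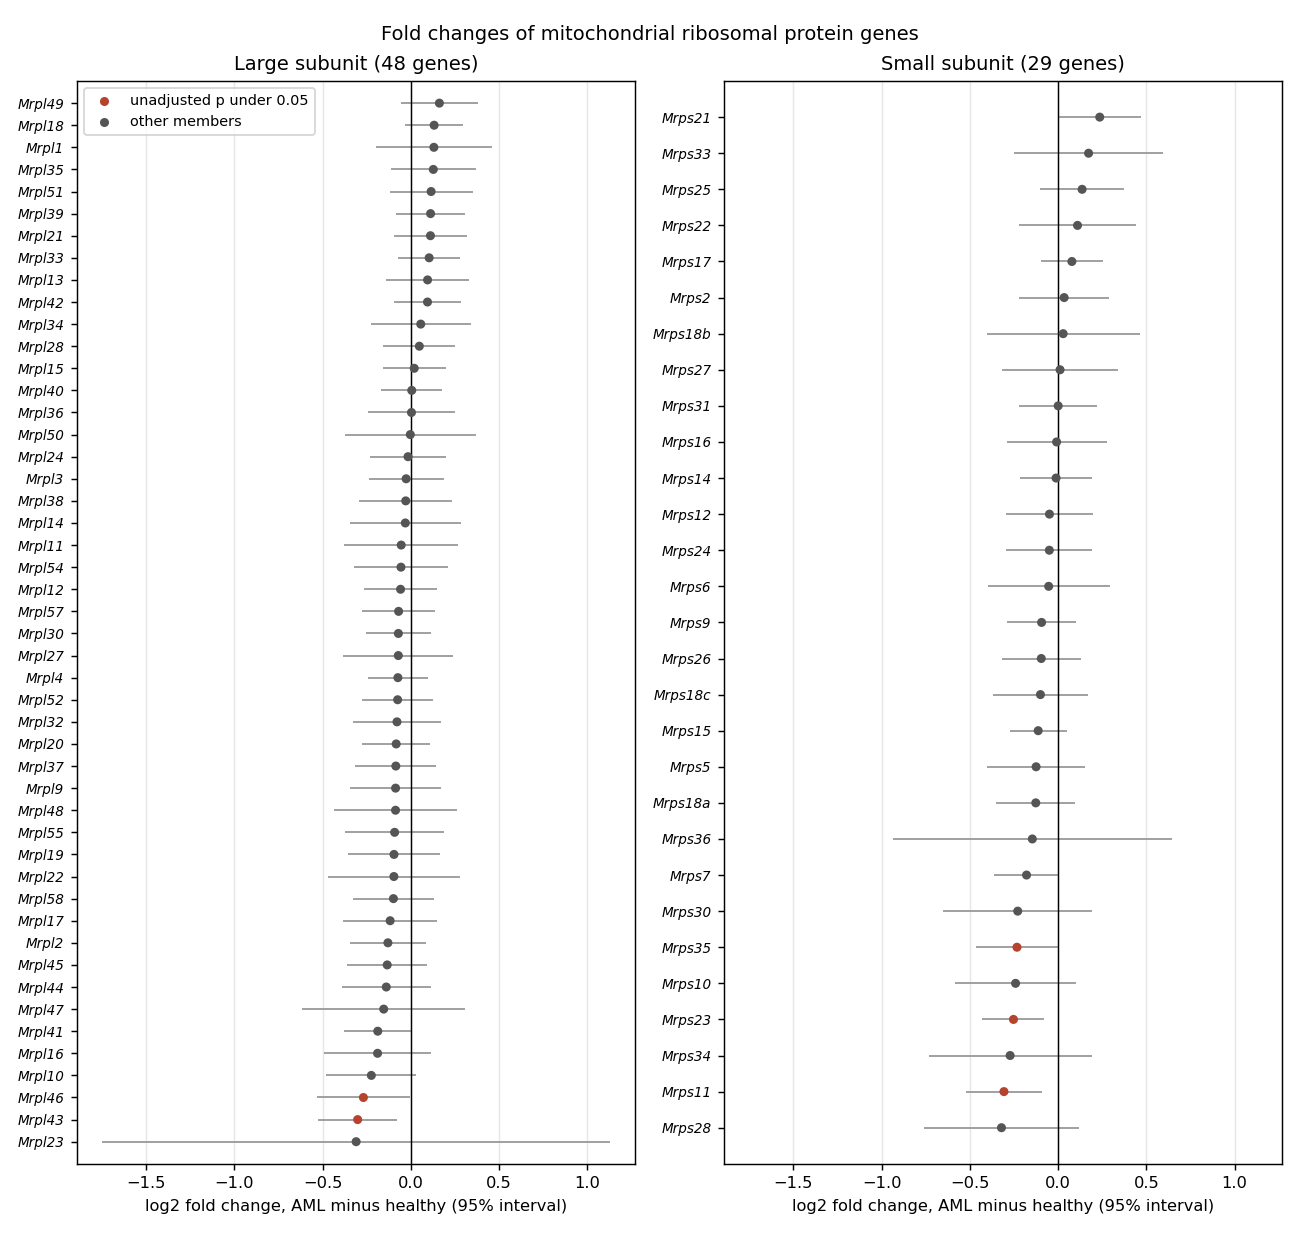
Log2 fold change, AML minus healthy, with a 95% interval derived from the edgeR quasi-likelihood F test (CPM scaled by TMM), for large (left) and small (right) subunit genes. The 5 members with an unadjusted p below 0.05 are in red, all of them below 0, and the interval of Mrpl23 is the widest.

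**Figure D3:**
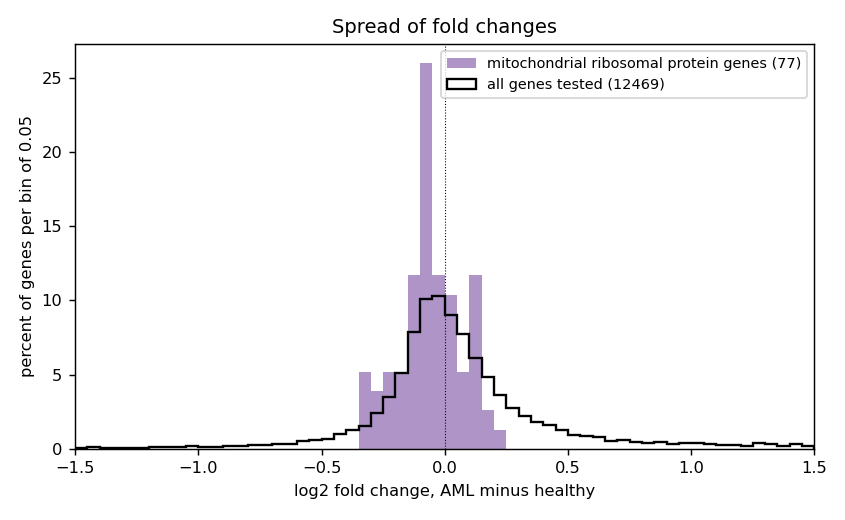
Percent of genes per bin of 0.05 in log2 fold change, AML minus healthy, for the 77 members (filled) and all 12469 genes tested (line). The members form a narrower heap between -0.32 and 0.24, while 363 of all genes (2.91%) fall outside the range of 1.5 that is drawn.

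Replicates of these genes were close. The within-group SD of log2 CPM had a median of 0.119 over members, against 0.184 over all genes tested and 0.152 over genes of the same CPM range. Besides Mrpl23, the members with an SD over 0.2 were Mrps30, Mrps28, Mrpl50 and Mrpl47. Mrps30 had 84.3, 55.9 and 62.4 CPM in AML libraries and 90.2, 83.7 and 63.5 CPM in healthy libraries. AML 1 was high and healthy 3 low within their groups, and the groups overlapped.

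Mrps23, a mitochondria-specific protein of the small subunit (chr11:88194106-88211507, + strand), had the smallest p of all members. Its deposited position overlaps that of Cuedc1 on the same strand and begins before its GENCODE start, 88204388. By GENCODE, 0% of the exonic bases of Mrps23 lie in another gene. How the counting treated reads in the overlap with Cuedc1 is not stated. Mrps23 was then read per library. It measured 60.5, 63.3 and 58.9 CPM in AML libraries and 74.8, 73.9 and 69.1 CPM in healthy libraries. The highest AML library stayed under the lowest healthy one. The means were 60.9 ± 2.23 CPM in AML and 72.6 ± 3.09 CPM in healthy libraries (SD, n = 3 each), and the log2 fold change was -0.25 ± 0.08 (SE). The adjusted p of edgeR's quasi-likelihood test was 0.460. In the authors' deposited table it was the only member with an unadjusted p below 0.05 (1.32% of those listed), where the share of all its genes was 8.12%, and its adjusted p there was 0.578.

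Mrps11, the counterpart of a bacterial protein on the platform of the small subunit (chr7:78783131-78792988, + strand), had 23.2, 24.4 and 24.1 CPM in AML libraries and 31.2, 28.7 and 28.7 CPM in healthy libraries. The AML libraries lay close together and below the healthy ones. Its log2 fold change was -0.31 ± 0.09 (SE, edgeR adjusted p = 0.463). Mrpl46, of the central protuberance, is its neighbour on the opposite strand (chr7:78775341-78783089, - strand), and the starts in the table are 42 bases apart. It had 47.9, 38.3 and 36.7 CPM in AML libraries and 50.3, 49.5 and 48.3 CPM in healthy libraries. AML 1 lay just under the lowest healthy library, so the groups came close without overlap. Its log2 fold change was -0.27 ± 0.11 (SE, edgeR adjusted p = 0.564). The annotation has 12.2% of the exonic bases of Mrpl46 and 7.97% of those of Mrps11 inside the other gene, and reads there cannot be told apart without strand.

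Mrpl43, a mitochondria-specific protein of the large subunit (chr19:45005014-45006442, - strand), had 22.8, 23.3 and 20.97 CPM in AML libraries and 28.6, 27.5 and 26.6 CPM in healthy libraries. The groups did not overlap, and the log2 fold change was -0.30 ± 0.10 (SE, edgeR adjusted p = 0.474). Of its exonic bases 33.4% also belong to Twnk, which encodes the helicase of mitochondrial DNA and lies on the other strand. Twnk averaged 15.6 ± 1.40 CPM in AML and 16.9 ± 3.29 CPM in healthy libraries (SD, n = 3 each), with an edgeR adjusted p of 0.838. Mrps35, a further mitochondria-specific protein of the small subunit, had 27.5, 32.2 and 31.7 CPM in AML libraries and 37.2, 33.6 and 36.6 CPM in healthy libraries, a log2 fold change of -0.23 ± 0.10 (SE, edgeR adjusted p = 0.565). AML 2 and healthy 2 nearly met.

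Nearest to the threshold on the other side was Mrps21, the counterpart of a bacterial protein of the small subunit. It had 30.3, 34.8 and 30.9 CPM in AML libraries and 25.7, 29.1 and 26.7 CPM in healthy libraries. The lowest AML library exceeded the highest healthy one, with a log2 fold change of 0.24 ± 0.10 (SE, edgeR adjusted p = 0.565). Mrpl18 was also above in every AML library, at 77.9, 78.3 and 78.6 CPM, against 74.5, 69.9 and 69.9 CPM in healthy libraries, a log2 fold change of 0.13 (edgeR adjusted p = 0.604). Mrpl49 had the largest positive value of the large subunit, 0.16 on the log2 scale (edgeR adjusted p = 0.624), with overlapping groups. In the negative direction Mrps7, Mrpl41 and Mrpl10 had log2 fold changes of -0.18, -0.19 and -0.22 (edgeR adjusted p = 0.568, 0.568 and 0.581). Mrps28, with the most negative value of the small subunit, had 14.0, 11.3 and 12.05 CPM in AML libraries and 18.6, 15.9 and 12.15 CPM in healthy libraries, where healthy 3 lay within the AML range. Its log2 fold change of -0.32 became -0.18 when healthy 1 was left out. It became -0.59 when the model held Lyz2, a fit that sets AML mainly against healthy 1.

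**Figure D4:**
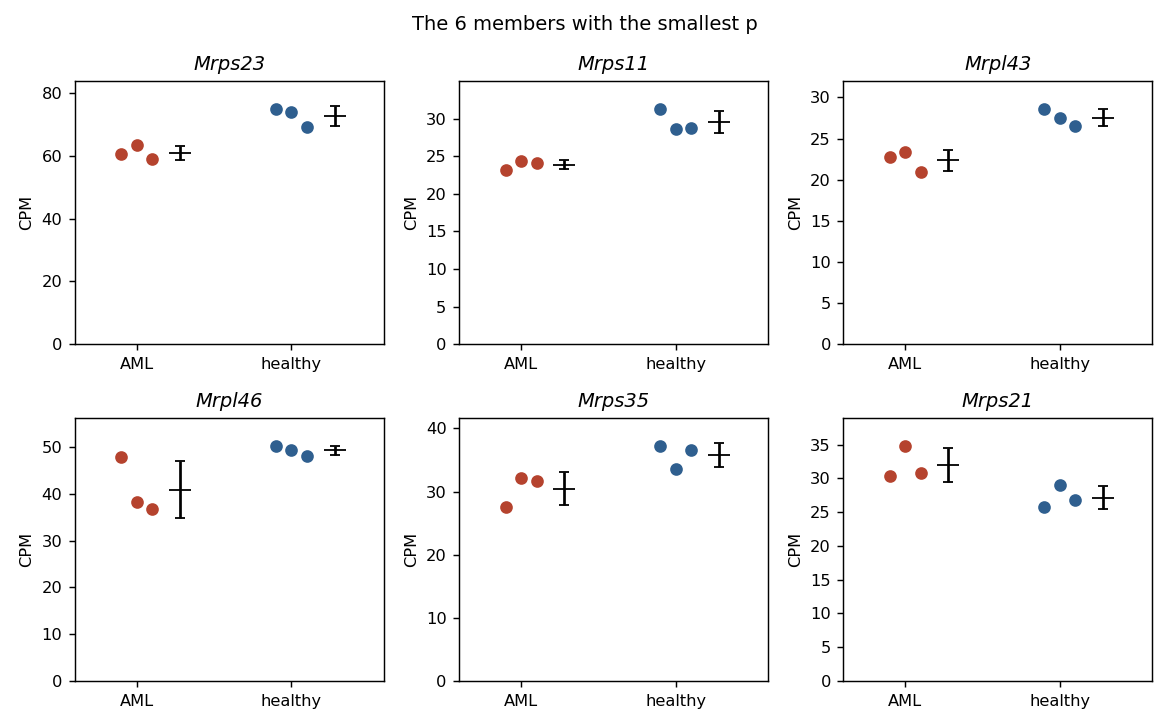
CPM per library of the 6 members with the smallest unadjusted p, AML in red at the left and healthy in blue at the right of each panel, with the mean and SD of 3 libraries beside the points. In each panel the groups do not overlap, 5 with AML below and Mrps21 with AML above, and the distances are small against the levels.

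By place in the particle, values were near 0 in each group, and with library totals alone as the scale the sign turned for Mrpl11, Mrpl12, Mrpl54, Mrpl38, Mrpl24, Mrpl3 and Mrps12. In the stalk, which recruits translation factors, the 4 tested genes Mrpl10, Mrpl11, Mrpl12 and Mrpl54 had a median log2 fold change of -0.06, and 0 passed in either direction. The 7 tested genes of the central protuberance, where the subunits meet, had a median of -0.07. They ran from Mrpl46 through Mrpl48 at -0.09, Mrpl52 at -0.08, Mrpl27 at -0.07, Mrpl38 at -0.03 and Mrpl40 at 0.00 to Mrpl18 at 0.13. For Mrpl40 the 6 libraries lay between 46.0 and 48.1 CPM, among the steadiest values of the family.

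At the exit tunnel rim, where new chains meet the inner membrane, the 7 genes had a median of -0.12. Mrpl44 stood at -0.14, Mrpl45, whose product ties the ribosome to the membrane, at -0.13, Mrpl17 at -0.12, Mrpl22 at -0.10 and Mrpl24 at -0.02, and Mrpl39 was positive at 0.11, as was Mrpl24 with library totals alone. Close to the peptidyl transferase centre, Mrpl16, Mrpl2 and Mrpl3 had values of -0.19, -0.13 and -0.03, and Mrpl16 stood at -0.11 without healthy 1 and -0.31 without healthy 2. Mrpl58 measured 56.5, 55.0 and 68.0 CPM in AML libraries and 65.5, 62.8 and 64.0 CPM in healthy libraries, a log2 fold change of -0.10. AML 3 was the highest of all, and the groups overlapped.

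In the small subunit the genes of the decoding centre and the path of the message, Mrps2, Mrps5, Mrps7 and Mrps12, had a median of -0.09, with Mrps12, the counterpart of the bacterial protein in which streptomycin resistance arises, at -0.05. The paralogues Mrps18a, Mrps18b and Mrps18c differed in level, at 50.3, 7.48 and 46.1 RPKM, and had log2 fold changes of -0.13, 0.03 and -0.10. Of the exonic bases of Mrps18b 30.5% lie in an antisense transcript. Genes with a bacterial number had a median log2 fold change of -0.06 across 44 members, and mitochondria-specific genes one of -0.09 over 33. Of the 5 members with an unadjusted p below 0.05, all lower in AML, 1 had a bacterial number (2.27% of 44). The other 4 were mitochondria-specific (12.1% of 33). The share of all genes lower in AML at that p was 3.75%, and these counts are small. No test of that difference was made.

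Summed over the family, the AML libraries held 2983, 3063 and 3007 CPM and the healthy libraries 3216, 3169.7 and 3002 CPM. Healthy 1 and healthy 2 were above every AML library, and healthy 3 lay among them. The means were 3018 ± 41.1 CPM in AML and 3129 ± 113 CPM in healthy libraries (SD, n = 3 each). As a share of all reads, with no scaling factor, the members took 0.308% ± 0.0107 in AML and 0.306% ± 0.0103 in healthy libraries, so the direction of the sum depended on the scaling. Healthy 1 held the highest CPM of the 6 libraries for 33 of 77 members. AML 1 held the lowest for 21, AML 3 for 20 and healthy 3 for 16. Leaving out AML 1 and healthy 1 together, the median over the members was -0.01 on the log2 scale.

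Large and small subunit genes were also set against each other within each library. The sums and ratios follow the symbols, so Mrps18a and Mrps30 count as small though their products sit in the large subunit. AML 3 held 38.6 CPM of Mrps18a and 62.4 CPM of Mrps30, and healthy 3 held 46.0 and 63.5 CPM. The large and small sums were 2002 and 1005 CPM in AML 3 and 1991 and 1010 CPM in healthy 3. With both genes moved to the large sum, the ratio of healthy 3 lay just above that of AML 3. The groups did not stay apart then. The large subunit summed to 2015 ± 32.1 CPM in AML and 2064 ± 64.2 CPM in healthy libraries, and the small subunit to 1002 ± 10.3 CPM in AML and 1065 ± 48.7 CPM in healthy libraries (SD, n = 3 each). The ratio of the sums was 2.01, 2.03 and 1.99 in AML libraries and 1.91, 1.93 and 1.97 in healthy libraries. On this scale the groups did not overlap, with means of 2.01 ± 0.0185 in AML and 1.94 ± 0.0291 in healthy libraries (SD, n = 3 each); an exact permutation test of 3 against 3 cannot go below p = 0.1. Summed per length, the ratio was 1.83, 1.81 and 1.78 in AML libraries and 1.75, 1.75 and 1.80 in healthy libraries, where healthy 3 lay within the AML range. The ratio taken from median log2 CPM went the other way, at 1.32 ± 0.116 in AML and 1.38 ± 0.0443 in healthy libraries. A further ratio used the 65 members whose deposited position overlaps that of no other gene, small RNAs and rows of very long span aside. Some of them, such as Mrps18b, still share exonic bases with other genes by GENCODE. Their summed CPM gave 1.99, 2.01 and 1.96 in AML libraries and 1.89, 1.91 and 1.96 in healthy libraries, where healthy 3 lay above AML 3. With subunits by symbol, the groups were thus apart on the scale of all 77 genes summed as CPM, and on none of the other 3 scales.

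**Figure D5:**
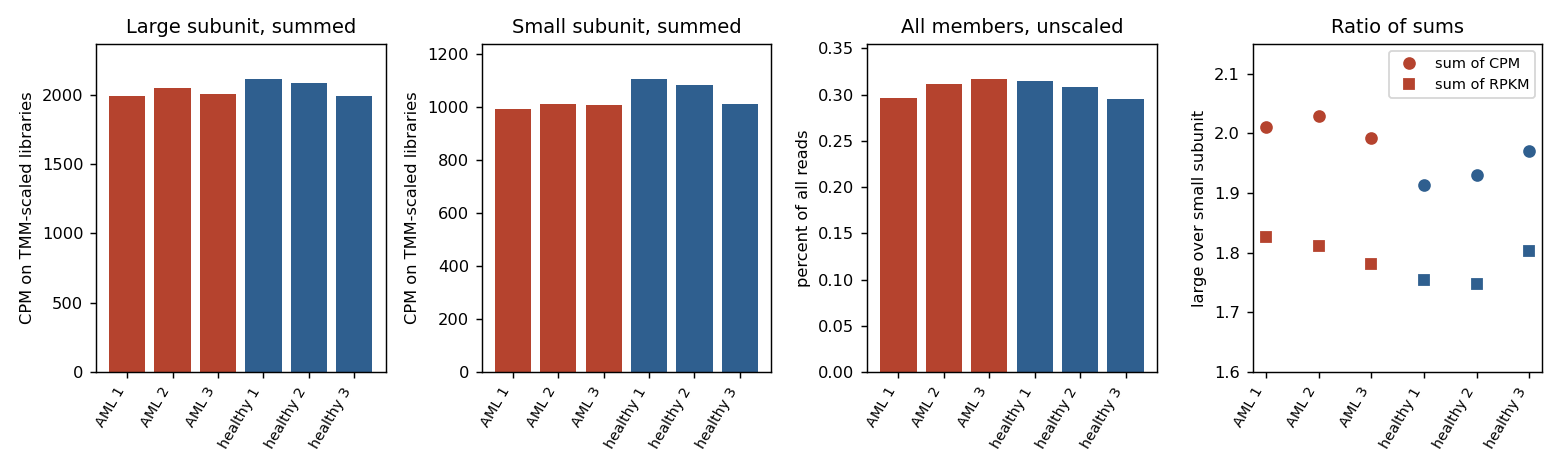
Summed CPM of the large and the small subunit genes, the unscaled percent of all reads in the 77 genes, and the ratio of large to small subunit sums, per library, AML in red and healthy in blue. Bars start at 0 and the ratio axis does not. With subunits by symbol, the summed CPM ratio over all 77 genes is higher in each AML library than in each healthy library. The RPKM ratio overlaps, and so does the CPM ratio with Mrps18a and Mrps30 counted as large, which is not drawn.

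Many of these genes stand back to back with another gene. A start within 1000 bases on the opposite strand was found for 30 of 77 members (39.0%) and for 2365 of 12367 tested genes with a position (19.1%). Mrps11 and Mrpl46 were the pair in which both genes had an unadjusted p below 0.05. Mrps12 shares its start region with Sars2, which charges mitochondrial serine tRNA and had a log2 fold change of 0.02 beside -0.05 for Mrps12. Mrpl30 lies 142 bases from Mitd1, which averaged 66.4 ± 2.88 CPM in AML and 52.4 ± 1.51 CPM in healthy libraries (SD, n = 3 each, edgeR adjusted p = 0.399, with 0.0310 by DESeq2 and a range of 0.0310 to 0.816 over the alternatives), while Mrpl30 measured 51.8 ± 2.93 CPM in AML and 54.4 ± 1.07 CPM in healthy libraries. The neighbours of that pair thus differed in the sign of their values.

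Promoter sequences of 300 bases, from 250 before to 50 after the start, were available from RefSeq (GRCm38.p6) for 68 of the 77 members. The motifs searched, on both strands, were GCGCATGCG for NRF1, a regulator of nuclear genes for mitochondria, whose letters overlap their own complement at the centre, CCGGAAG for ETS factors, and AAGATGGCG for YY1. A gene counted once if any of its promoter windows held a match. NRF1 letters were found in 7 members (10.3%), against 1.95% of 27025 genes with a promoter and 4.19% of the 9687 tested ones. ETS letters were found in 25 (36.8%), against 9.93% and 20.7%, and YY1 letters in 8 (11.8%), against 1.64% and 3.72%. The median log2 fold change with and without a match was -0.09 and -0.06 for NRF1, -0.05 and -0.08 for ETS, and -0.02 and -0.07 for YY1. A match here is a description of letters and not a site. The promoters of the 3 members with the smallest p are printed below, and that of Mrpl22 as one that holds both ETS and NRF1 letters, 5′ to 3′ on the strand of the gene, with matches in capitals.
Mrps11 (chr7:78782881-78783180, + strand, YY1 letters on the opposite strand, a stretch that also covers the start of Mrpl46): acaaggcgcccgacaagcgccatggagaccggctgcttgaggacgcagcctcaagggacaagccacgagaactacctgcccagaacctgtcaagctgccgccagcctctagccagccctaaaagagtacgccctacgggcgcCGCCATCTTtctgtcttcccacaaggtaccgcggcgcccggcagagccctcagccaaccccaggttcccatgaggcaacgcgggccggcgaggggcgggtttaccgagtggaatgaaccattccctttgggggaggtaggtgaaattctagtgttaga
Mrpl43 (chr19:45006393-45006692, - strand, ETS letters at 2 places): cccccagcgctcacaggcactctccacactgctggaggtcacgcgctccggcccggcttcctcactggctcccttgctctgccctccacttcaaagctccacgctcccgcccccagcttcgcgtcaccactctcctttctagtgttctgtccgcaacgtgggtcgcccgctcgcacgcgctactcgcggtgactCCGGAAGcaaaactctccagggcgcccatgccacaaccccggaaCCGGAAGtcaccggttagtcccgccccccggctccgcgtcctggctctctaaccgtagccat
Mrps23 (chr11:88204138-88204437, + strand, ETS letters on the opposite strand; the RefSeq start differs from that of the table): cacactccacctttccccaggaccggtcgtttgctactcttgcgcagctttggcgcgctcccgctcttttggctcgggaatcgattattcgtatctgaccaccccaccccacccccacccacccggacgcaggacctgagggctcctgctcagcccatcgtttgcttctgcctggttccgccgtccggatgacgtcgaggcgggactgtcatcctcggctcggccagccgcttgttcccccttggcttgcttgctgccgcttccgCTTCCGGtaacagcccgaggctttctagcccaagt
Mrpl22 (chr11:58171414-58171713, + strand, ETS then NRF1 letters): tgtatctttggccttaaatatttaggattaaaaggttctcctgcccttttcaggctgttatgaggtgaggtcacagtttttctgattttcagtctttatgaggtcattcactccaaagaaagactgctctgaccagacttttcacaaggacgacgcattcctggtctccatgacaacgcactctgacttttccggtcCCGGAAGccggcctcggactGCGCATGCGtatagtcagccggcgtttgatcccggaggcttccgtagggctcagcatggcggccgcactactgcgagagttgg

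The rest of mitochondrial translation was described from lists that hold none of the members, and 0 of their 84 tested genes passed an adjusted p of 0.05 by edgeR's quasi-likelihood test or limma-voom. DESeq2 and the likelihood ratio test of edgeR each called 1 (1.19%), Myc, near the shares of all genes given above. The counts at an unadjusted p that follow stand against 3.75% of all genes lower and 5.08% higher in AML. Of 5 tested mitoribosomal proteins with other symbols 1 was lower and 0 higher at an unadjusted p below 0.05, with a median log2 fold change of -0.03. With Oxa1l, an insertase of the inner membrane that binds the ribosome and stood on the same list, the median over 6 was -0.06. The lower gene was Gadd45gip1, a protein of the large subunit, at 43.5 ± 1.25 CPM in AML and 50.5 ± 3.84 CPM in healthy libraries (SD, n = 3 each, edgeR adjusted p = 0.551). Dap3, a GTP-binding protein of the small subunit, had 39.2, 34.6 and 43.0 CPM in AML libraries and 44.5, 46.1 and 46.2 CPM in healthy libraries, a log2 fold change of -0.23 (edgeR adjusted p = 0.565), and -0.15 without AML 2. The groups did not overlap for either gene.

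Among 12 translation factors 0 were lower and 1 was higher at an unadjusted p below 0.05, with a median of 0.06. Mtrf1l, the release factor that ends most mitochondrial chains, had 20.98, 22.1 and 20.6 CPM in AML libraries and 14.6, 17.1 and 16.3 CPM in healthy libraries. Every AML library lay above, with a log2 fold change of 0.41 ± 0.11 (SE, edgeR adjusted p = 0.438). Mtif3, an initiation factor, was next with 0.22, and 0.36 without AML 1 or 0.12 without AML 3. The 17 mitochondrial aminoacyl-tRNA synthetases had a median of 0.05, with 1 lower and 0 higher. Cars2, for cysteine, had a log2 fold change of -0.32 (edgeR adjusted p = 0.546), which was -0.21 without healthy 2. Pars2, for proline, had one of 0.47 (edgeR adjusted p = 0.569), with a range of 0.22 to 0.73 over the alternatives.

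The 25 genes of mitoribosome assembly and ribosomal RNA modification had a median of -0.07, with 2 lower and 0 higher at an unadjusted p below 0.05. Rbfa, which matures the small subunit, averaged 25.1 ± 0.928 CPM in AML and 30.6 ± 1.92 CPM in healthy libraries (SD, n = 3 each), and every AML library lay below (edgeR adjusted p = 0.478). Ddx28, an RNA helicase for assembly of the large subunit, had 48.9, 34.9 and 31.7 CPM in AML libraries and 52.4, 56.8 and 44.6 CPM in healthy libraries, with AML 1 among the healthy values (edgeR adjusted p = 0.564). Its log2 fold change was -0.41, and -0.62 without AML 1. Of 16 genes of mitochondrial transcription and RNA handling 0 were lower or higher, with a median of -0.02. Fastkd5, which processes mitochondrial transcripts, had a log2 fold change of 0.39, and Tfam, which packages and transcribes mitochondrial DNA, one of -0.17, which was -0.11 without healthy 1.

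Of 8 tested nuclear regulators linked to mitochondrial genes 2 were lower and 0 higher at an unadjusted p below 0.05, against 3.75% and 5.08% of all genes, with a median of -0.06. Myc, a transcription factor of growth, had 143, 133 and 140.1 CPM in AML libraries and 188, 242 and 230.1 CPM in healthy libraries. All AML libraries lay below all healthy libraries, with a log2 fold change of -0.67 ± 0.10 (SE). Its adjusted p in edgeR's quasi-likelihood test was 0.323 and ran from 1.35e-06 to 0.816 over the alternatives. Myc passed with DESeq2 (1.35e-06), with the likelihood ratio test of edgeR (3.80e-05), without AML 1 (0.0469), without healthy 1 (0.0137) and without both (0.00217). Ppargc1b, a coactivator of mitochondrial genes, had a log2 fold change of -0.57 (edgeR adjusted p = 0.522), with overlapping groups. Its value was -0.11 with Lyz2 as a covariate, a fit that sets AML mainly against healthy 1. Nrf1, the regulator whose letters were searched above, averaged 87.1 ± 9.90 CPM in AML and 99.9 ± 3.72 CPM in healthy libraries (SD, n = 3 each, edgeR adjusted p = 0.570).

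The authors' deposited table lists 76 of the members among 9769 genes, and 0 of them had an adjusted p below 0.05 there, beside 74 of all its genes. Its median log2 fold change over these members was -0.06, with 51 below 0. For 75 of the 76 the sign in the authors' deposited table was that of the edgeR fit used here, and the values differed by 0.01 at most.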

How the data were processed

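Poly(A)-primed cDNA from 2 ng of total RNA was sequenced as single reads of 51 cycles without strand information, per the labels' protocols. Per the submitters' processing notes the tools were STAR 2.6.0, edgeR 3.28.1, HTSeq 0.6.0 and bcl2fastq 2.18.0.12, with mm10 and hg19 as builds and no roles stated. Options for counting are not stated in these notes. The authors deposited a table of raw read counts per gene for 24091 genes, with position and length. The authors also deposited a table of their own comparison that holds, per the file headers, log2 fold changes with a score from a likelihood ratio test and p-values, raw and adjusted. Its values per library, deposited by the authors, were read as RPKM, since they equal the RPKM of the counts times 1.006 to 1.008 by the median, and were not used in tests.

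Counts were tested with edgeR 4.0.16 (quasi-likelihood, TMM, filterByExpr at a minimum count of 10, group only) in R 4.3.3, with Benjamini-Hochberg adjustment over the 12469 genes tested and a threshold of 0.05. Tests were two-sided. The steps were tested on simulated data of low dispersion, with planted changes larger than those of any member. That run does not show how small a change these libraries could reveal. CPM use TMM-scaled library sizes and RPKM the deposited lengths. Fold changes are log2, AML minus healthy. Their SE was derived as the size of the fold change over the square root of the F statistic of the quasi-likelihood test. The 95% interval was built from that SE and the degrees of freedom of the test, so both are approximate. The limit of 3 reads, without molecular identifiers, speaks of counting error and of nothing else. Exon overlap and shared windows came from GENCODE vM21, which has the build GRCm38 (mm10) of the deposited positions, and promoters from RefSeq GRCm38.p6.

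The members and lists were chosen with earlier results of these data known. Named were the 6 genes of each subunit with the smallest p, the 4 highest and 2 lowest in RPKM, the largest fold change each way, all genes of a role list, and up to 2 genes per pathway list. Mrps30, Mrpl47, Mrpl50, Twnk, Sars2, Mitd1, Nrf1 and Oxa1l were named after their values were seen. Alternatives were other scalings, filters and tests (DESeq2 1.42.0, limma-voom 3.58.1), a block for the replicate number, leaving out single libraries, leaving out both AML 1 and healthy 1 together, and Lyz2 as a covariate. Sequence of other builds was not used here.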

Additional observations from a re-analysis of the deposited data

How the results depend on the processing

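Of the members 0 passed an adjusted p of 0.05 under each alternative run. The SE of a member's log2 fold change, with a median of 0.10, and the low reads of Mrpl23 limit what these libraries can show. Over all genes 0 passed by quasi-likelihood, and 0 with limma-voom, while 2 passed with library totals alone, 1 with upper quartile factors, 2 with no filter, 100 with the likelihood ratio test, 143 with DESeq2 and 444 without both AML 1 and healthy 1. Leaving out 1 library gave 0 to 147, the high values being 147 without AML 1 and 89 without healthy 1. The cause was not tested. The median log2 fold change was -0.00528 (large) and -0.0300 (small) with library totals alone, -0.00451 (large) and -0.0540 (small) without both libraries, -0.0657 (large) and -0.132 (small) with Lyz2 as a covariate, and -0.0939 to -0.0310 (large) and -0.115 to -0.0605 (small) with 1 library left out. Relative to the median of all genes, which library totals moved to 0.07, the members stood at -0.08 under both scalings. They stood at -0.02 without both AML 1 and healthy 1, and at -0.11 to -0.05 with 1 library left out. With Lyz2 as a covariate they stood at -0.14. Among healthy libraries Lyz2 was near its AML level in healthy 1 alone, so that fit sets AML mainly against healthy 1. The difference in subunit ratio, 0.0723 by CPM, was 0.0388 by RPKM, -0.0547 by median log2 CPM and 0.0601 to 0.0884 with 1 library left out.

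Of 797 comparisons for the 42 named members 748 kept their direction and 49 did not, for 18 members. With library totals alone the log2 fold change was 0.0163 for Mrps24, 0.0126 for Mrps12, 0.00990 for Mrpl11, 0.00438 for Mrpl12, 0.00611 for Mrpl54, 0.0353 for Mrpl38, 0.0452 for Mrpl24 and 0.0345 for Mrpl3, and with upper quartile factors 0.00246 for Mrpl24. Without both AML 1 and healthy 1 it was 0.00871 for Mrpl52, 0.0462 for Mrpl23, 0.0341 for Mrpl17, 0.0329 for Mrps12, 0.123 for Mrpl11, 0.00182 for Mrpl54, 0.0892 for Mrpl48, 0.0426 for Mrpl3, -0.0540 for Mrps18b and 0.0335 for Mrps18c. With Lyz2, a myeloid gene at 503, 567 and 434 CPM in AML and 459, 35.0 and 33.1 CPM in healthy libraries, as a covariate it was 0.00551 for Mrps24, 0.0493 for Mrpl27, 0.118 for Mrpl38, -0.0229 for Mrpl40, 0.0897 for Mrpl22, 0.0846 for Mrpl24 and -0.132 for Mrps2. With 1 library left out, values ran from -0.134 to 0.0183 for Mrps24, -0.119 to 0.0409 for Mrps12, -0.178 to 0.0694 for Mrpl11, -0.137 to 0.0275 for Mrpl54, -0.0981 to 0.0545 for Mrpl38, -0.0679 to 0.0160 for Mrpl24, -0.0819 to 0.0407 for Mrpl3, -0.168 to 0.0398 for Mrpl27, -0.188 to 0.0141 for Mrpl48, -0.0317 to 0.117 for Mrps18b, -0.188 to 0.000541 for Mrps18c, -0.0235 to 0.0199 for Mrpl40 and -0.0509 to 0.118 for Mrps2. Twnk, outside the family, stood at 0.0588 without both AML 1 and healthy 1 and at -0.228 to 0.0529 with 1 library left out. With Lyz2 as a covariate it was -0.0908 for Cars2, -0.124 for Gadd45gip1, -0.424 for Myc and -0.296 for Tfam. With 1 library left out it was -0.480 to -0.177 for Mrps28 and -0.553 to -0.0310 for Mrpl23. The cause was not tested. The replicate block called 0 genes and 0 members. Deviations of libraries of equal number had correlations over genes of 0.130, -0.0523 and 0.158. AML 1 and AML 3 each correlated best with the healthy library of equal number, and AML 2 with healthy 3 (0.0814). Deviations from a mean of 3 libraries are tied to each other, so these values cannot tell whether the numbers pair the libraries.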
